A study of Mus musculus with 20 samples.

Results

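Chromatin accessibility was followed at the genes of 2 GATA factors, Gata6 and Gata4, in a table of 42403 mouse genomic regions bound by GATA6. A region was taken as a member when its midpoint lay within 100 kb of the gene start in the GENCODE vM21 annotation of mm10, which gave 35 regions, 13 at Gata6 (ENSMUSG00000005836.10, chr18:11052064-11085635, plus strand) and 22 at Gata4 (ENSMUSG00000021944.15, chr14:63198922-63271692, minus strand). Accessibility was not used to choose them. ATAC-seq, in which the transposase Tn5 cuts exposed DNA, was run on KH2 ES cells (C57BL/6 x 129/Sv) that carry a doxycycline-inducible Gata6 cassette: untreated (d0, 3 samples), or given 1 µg/mL doxycycline and harvested at 8 h (3 samples), at 16 h (3), on day 1 (3), on day 2 (3) or on day 4 (2). Cells called XEN, from the line X10 (CD1, wild type, 3 samples), were untreated and grown without LIF, whereas the ES cells received LIF. All cells shared the serum medium, gelatin and inactivated fibroblast feeders, which were removed by adsorption before the assay. These times follow the sample titles. The treatment labels differ from them and read 16 h (titled 8 h), 24 h (titled 16 h), 48 h (titled day 1), 72 h (titled day 2) and 96 h (titled day 4). By the methods, the cassette holds the GATA6 open reading frame with an HA tag, and resistant clones were picked. DNA from Gata6 coding exons can therefore come from the cassette as well as from the gene itself. XEN cells are another line of another strain, so that stage, line and strain cannot be told apart in any comparison with them.

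GATA factors are zinc finger proteins that bind DNA around the letters GATA. GATA6 drives the primitive endoderm, the extraembryonic lineage that separates from the pluripotent epiblast in the blastocyst, and GATA4 is its close relative, expressed in the same lineage. XEN cells are self-renewing lines of extraembryonic endoderm. OCT4, SOX2 and ESRRB are pluripotency transcription factors (PTF) that maintain ES cells. SOX17 is an HMG-box factor of the endoderm that acts beside GATA6. Each region carried classes given by the authors: its GATA6 binding over time (early, late or transient), SOX17 binding, PTF binding (at d0, ectopic during induction, or none), and accessibility at d0 (closed, moderate or accessible).

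The sequences around GATA6 motifs are shown for 6 of the Gata4 regions, to let sites that stood higher at day 4 than at d0 be read beside a region that did not. Each window spans the best match of the region to the GATA6 matrix, in capitals, with 50 bases on either side, 5′ to 3′ on the strand of the match, read from GRCm38 (NCBI RefSeq), the build that mm10 names. Regions are called by the distance of their midpoint from the gene start in kb, negative upstream. In this order the windows lie at chr14:63367834-63367946 (minus strand), chr14:63283673-63283785 (minus), chr14:63282299-63282411 (plus), chr14:63265378-63265490 (plus), chr14:63256137-63256249 (plus) and chr14:63231307-63231419 (plus), and none overlaps an annotated coding exon or UTR.
Gata4 −96.4 kb: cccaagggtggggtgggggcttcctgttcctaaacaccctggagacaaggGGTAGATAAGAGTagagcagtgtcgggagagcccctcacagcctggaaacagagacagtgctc
Gata4 −12.1 kb: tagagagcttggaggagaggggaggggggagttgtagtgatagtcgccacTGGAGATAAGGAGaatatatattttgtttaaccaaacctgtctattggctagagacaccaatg
Gata4 −10.4 kb: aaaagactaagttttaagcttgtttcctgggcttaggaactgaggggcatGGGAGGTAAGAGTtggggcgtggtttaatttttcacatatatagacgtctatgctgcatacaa
Gata4 +6.5 kb: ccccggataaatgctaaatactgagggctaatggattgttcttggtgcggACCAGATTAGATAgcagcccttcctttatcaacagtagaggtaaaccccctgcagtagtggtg
Gata4 +15.4 kb: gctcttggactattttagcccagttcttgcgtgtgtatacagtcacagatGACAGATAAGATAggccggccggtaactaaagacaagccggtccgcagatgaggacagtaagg
Gata4 +39.9 kb: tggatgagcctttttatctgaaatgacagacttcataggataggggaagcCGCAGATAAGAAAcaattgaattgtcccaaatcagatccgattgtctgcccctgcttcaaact

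The match scores in these windows are 13.45, 13.29, 8.176, 9.361, 14.69 and 15.05, in the same order. The −96.4 kb region stood at 0.189 RPM at d0, 0.354 at day 2 and 0.181 at day 4. It holds a better match than the −10.4 kb and +6.5 kb regions, which both stood higher at day 4 than at d0. The −95.0 kb region, whose sequence is not shown, also stood lower at day 4 (0.0443 RPM) than at d0 (0.0526 RPM). Its best match scored 8.741. Whether the match score goes with the change was not tested. The +39.9 kb region has the most GATA6 matches of the 35 (13), followed by the −12.1 kb region (10). These counts were not divided by the width of the regions, 2472 and 1526 bp in the same order. The letters AGATAA, counted on both strands, occur in 7 of 13 Gata6 regions (53.8%) and 15 of 22 Gata4 regions (68.2%), beside 66.7% of all 42403 regions, and at 1.13, 1.48 and 1.74 copies per kb. Per kb, these letters were thus less frequent at both loci than over all GATA6-bound regions, a difference that was not tested. The member regions were also wider, with a median of 556 bp at Gata6 and 755.5 bp at Gata4, beside 525 bp over all regions. No sequence of the Gata6 locus is shown.

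Values are reads per M reads of the library (RPM) from fragments under 100 bp, averaged over the libraries of a group by the authors and not divided by the width of a region. From these averages the reads of 16 single libraries were recovered (3 each at 8 h, 16 h, day 1 and day 2, and 2 each at day 4 and in XEN cells, where 3 samples are labelled), but none at d0. The libraries held 181 to 288 M reads except 1 of the XEN libraries (43.32 M), in which 1 read is worth 0.02309 RPM. Over all regions the median of log2(RPM + 0.03) stood above d0 by 0.03 at 8 h, 0.16 at 16 h, 0.39 at day 1, 0.83 on day 2, 0.56 on day 4 and 0.49 for XEN. Library A of the 8 h group stood low, with a median log2 value of −3.52, beside −2.91 and −3.01 in libraries B and C. Results that lean on that library are given without it. As a check of the labels, summed accessibility within 100 kb of the starts of 4 ES cell marker genes (Pou5f1, Sox2, Nanog and Esrrb, 45 regions) was 15.8 RPM at d0, 28.7 on day 2, 15.3 on day 4 and 10.6 for XEN. It went from 1.98 RPM at d0 to 1.17 on day 4 and 0.533 for XEN at Sox2, and from 4.09 to 4.14 and 1.84 RPM at Pou5f1, while it went from 2.32 to 9.47 and 6.80 RPM at Sox17 and from 1.28 to 6.07 and 4.13 RPM at Dab2. At the feeder fibroblast genes Col1a1, Col1a2 and Thy1 it went from 2.76 RPM in all at d0 to 4.27 at day 4 and 4.30 in XEN cells, and no region lay near Twist2. Their part in the results was not tested.

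At Gata6 the summed accessibility of the 13 regions ran through 2.22, 2.21, 3.03, 3.64, 8.35, 7.997 and 4.46 RPM, in the order d0, 8 h, 16 h, the 3 later days and XEN. At Gata4 the 22 regions summed in the same order to 3.65, 3.42, 5.77, 7.63, 16.5, 12.2 and 11.0 RPM. Both loci stayed near their d0 level at 8 h, rose most between day 1 and day 2, and then parted: Gata6 held its sum from day 2 to day 4 (0.958-fold) and had a lower sum in XEN cells than at day 4 (0.558-fold), whereas Gata4 lost part of it by day 4 (0.739-fold) and was near its day 4 level in XEN cells (0.899-fold). The sum over all regions changed 0.757-fold from day 2 to day 4 and 0.771-fold from day 4 to XEN. Between d0 and day 4 the log2 of the sum, with 0.03 RPM added, rose by 1.84 at Gata6 (SD 0.17 over the 2 day 4 libraries) and by 1.73 at Gata4 (SD 0.0077), a description without a test because d0 has no single libraries. Single libraries for Gata6 summed to 1.61, 2.80 and 2.22 RPM in the 8 h group, 8.67 and 7.32 RPM on day 4 and 3.93 and 5.0 RPM for XEN. Those for Gata4 summed to 2.03, 4.33 and 3.90 RPM in the 8 h group, 12.2 and 12.2 RPM on day 4 and 10.53 and 11.4 RPM for XEN. The 8 h and day 4 libraries do not overlap at either locus. When columns were centred on the median of all regions, the d0 to day 4 change was 1.12 at Gata6 and 1.01 at Gata4.

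**Figure D1:**
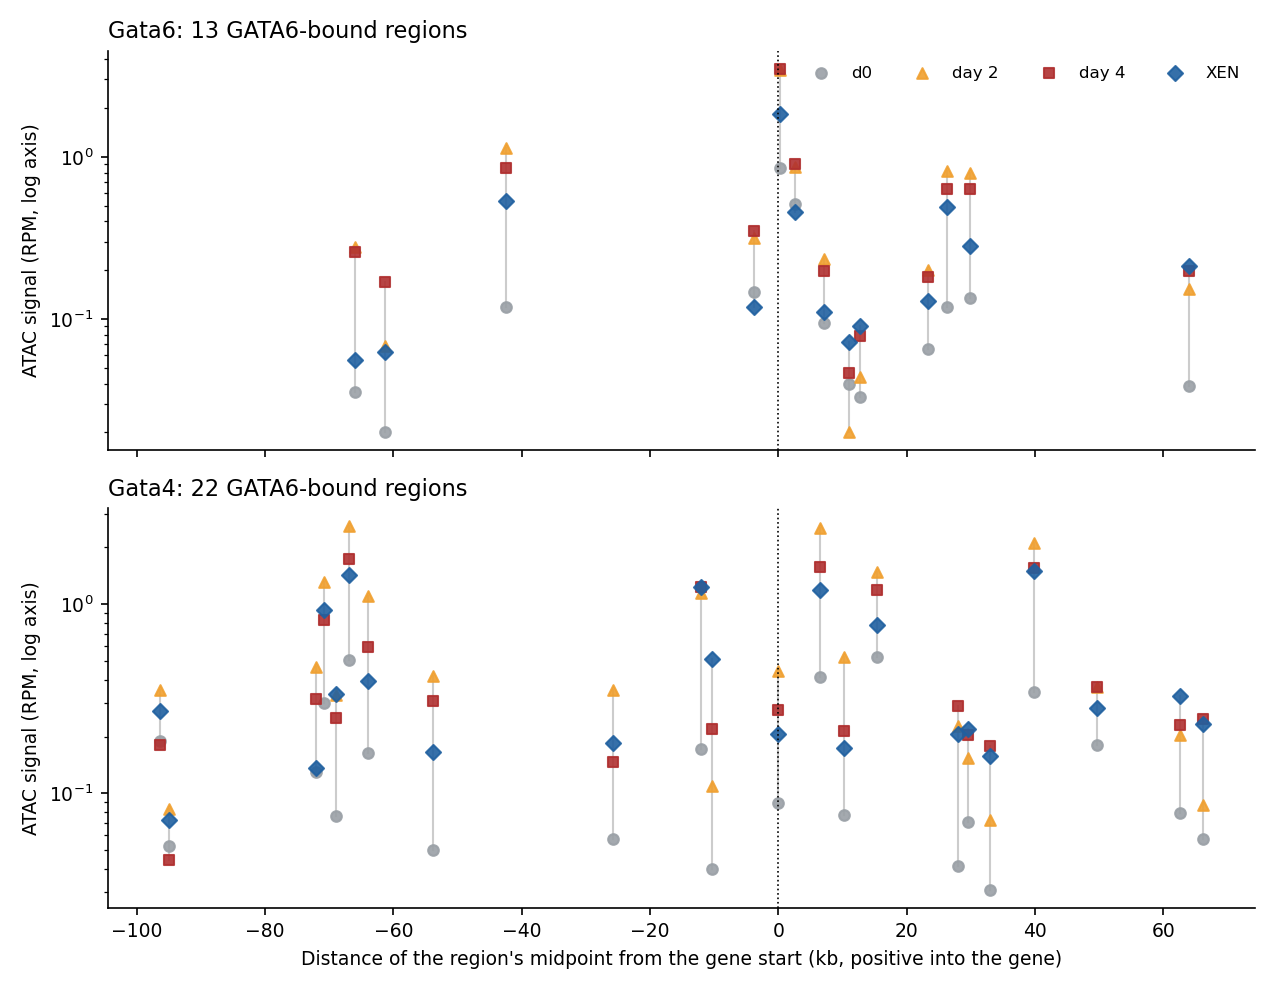
Each mark is the group average of 1 region in RPM (log axis) against the distance of its midpoint from the gene start in kb, for Gata6 (top, 13 regions) and Gata4 (bottom, 22 regions), with d0 in grey circles, day 2 in orange triangles, day 4 in red squares and XEN in blue diamonds. The highest mark of the Gata6 panel, 3.49 RPM at day 4, sits at the gene start, while at Gata4 the high marks are spread from −70.8 to +39.9 kb.

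Of the Gata6 regions the one at the gene start dominated (+0.3 kb, chr18:11051211-11053515). It spans the annotated starts of Gata6 and of the divergent non-coding gene 1010001N08Rik, overlaps no coding exon, and is classed early, with SOX17 and ectopic PTF binding and moderate accessibility at d0. Its averages, in the same order of groups, were 0.860, 0.830, 1.19, 1.46, 3.42, 3.49 and 1.85 RPM. Single libraries held 0.551, 1.15 and 0.792 RPM at 8 h, 3.85 and 3.12 RPM at day 4, and 1.32 and 2.38 RPM in XEN cells, so day 4 lay above both other groups without overlap. The change from 8 h to day 4 was 2.08 ± 0.36 on the log2 scale (SE, limma, adjusted p = 8.01e-08). Per kb of its width it rose from 0.373 to 1.51 RPM, where 2.02% of all regions stood above it. The region contributed 38.7% of the sum of the locus at d0 and 43.6% at day 4, and with it left out the rest of the locus still rose by 1.71.

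The −42.5 kb region (chr18:11009081-11010048) lies in an intron of 1010001N08Rik and is early, closed at d0, with SOX17 and ectopic PTF binding. It went from 0.118 RPM at d0 through 0.0988, 0.209 and 0.384 RPM at 8 h, 16 h and day 1 to 1.13 RPM on day 2, 0.853 on day 4 and 0.534 for XEN. Its libraries read 0.0475, 0.132 and 0.117 RPM at 8 h, 0.392, 0.484 and 0.275 RPM on day 1, 0.892 and 0.814 RPM on day 4 and 0.531 and 0.537 RPM for XEN. No library of one of these groups overlaps those of the next, and the region rose both to day 1 (1.72 ± 0.32, limma adjusted p = 3.71e-05) and to day 4 (2.85 ± 0.36, adjusted p = 1.72e-13), the largest 8 h to day 4 change of all 35 regions. It was also the only member called at day 1 under every setting listed in advance. Farther upstream, the late regions at −66.0 and −61.3 kb began at 0.0355 and 0.0202 RPM, among the lowest of the locus. The former stood at 0.278 RPM at day 2 and 0.260 at day 4, the latter at 0.0683 and 0.169 RPM. Libraries of the −66.0 kb region gave 0.0285, 0.0282 and 0.0797 RPM at 8 h and 0.278 and 0.241 RPM at day 4 (2.005 ± 0.36, limma adjusted p = 2.50e-07). At −61.3 kb the change to day 4 was 1.81 ± 0.36 (adjusted p = 3.55e-06).

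In introns of the gene, 2 further ectopic PTF regions opened. At +26.2 kb (chr18:11077867-11078715, intron, early) the averages were 0.118 RPM at d0, 0.818 on day 2, 0.638 on day 4 and 0.493 for XEN, and all libraries at day 2 (0.862, 0.953 and 0.638 RPM) lay above those at 8 h (0.0854, 0.141 and 0.127 RPM). The change was 2.52 ± 0.32 to day 2 (limma adjusted p = 1.11e-13) and 2.20 ± 0.36 to day 4 (adjusted p = 1.47e-08). The region at +29.9 kb (chr18:11081376-11082563, intron, late) moved from 0.135 RPM at d0 to 0.631 at day 4 (2.30 ± 0.36 from 8 h, adjusted p = 2.84e-09). Smaller changes were seen at +23.3 kb, where 0.0653 RPM at d0 became 0.182 RPM at day 4 (1.36 ± 0.36, limma adjusted p = 0.000615), and at −3.8 kb, a transient region that nevertheless stood at 0.348 RPM at day 4 after 0.147 RPM at d0 (1.26 ± 0.36, adjusted p = 0.00164). Both calls were lost with a pseudocount of 0.15 RPM, after centring and after quantile normalisation. The −3.8 kb call was also lost without day 4 library A. Downstream of the gene, the late +64.1 kb region went from 0.0388 to 0.197 RPM (1.72 ± 0.36, limma adjusted p = 1.08e-05). It was 1 of the 3 members, out of 35, whose GATA6 binding the authors classed as increased when Oct4 was knocked down, beside 8.57% of all regions.

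All 4 regions on coding exons (+2.6, +7.1, +11.0 and +12.7 kb) missed the call from 8 h to day 4. At +2.6 kb, where 1117 bases are coding, libraries held 0.479, 0.715 and 0.600 RPM at 8 h and 0.994 and 0.824 RPM at day 4 (0.59 ± 0.36, limma adjusted p = 0.165). The +7.1 kb region changed by 1.00 ± 0.36, just under the 2-fold limit (adjusted p = 0.0141). At +11.0 kb the average was 0.0396 RPM at d0, 0.0201 at day 2 and 0.0463 at day 4 (0.13 ± 0.36, adjusted p = 0.786), and at +12.7 kb the change was 0.64 ± 0.36 (adjusted p = 0.131). These were the 4 smallest changes of the locus, on the regions where reads could also come from the cassette. Whether the cassette had a part in them was not tested. Without these 4 regions the d0 to day 4 change of the sum was 2.12. From 8 h to day 4, 9 of the 9 other regions were called higher, beside 31.1% of all regions. Of these 9 calls, 5 held under every setting listed in advance.

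The −0.1 kb region that spans the annotated gene start (chr14:63271477-63272037, early, closed at d0) went from 0.0891 RPM at d0 to 0.446 at day 2 and 0.277 at day 4, and made up 2.44% of the sum of the locus at d0 and 2.27% at day 4. Its libraries gave 0.0475, 0.103 and 0.141 RPM at 8 h, 0.542, 0.533 and 0.262 RPM at day 2 and 0.273 and 0.281 RPM at day 4 (1.91 ± 0.32, limma adjusted p = 2.31e-08, and 1.35 ± 0.36, adjusted p = 0.000713). Another 2 annotated transcripts that end with the gene start farther in (63245271 and 63245248), and no GATA6-bound region covers these starts. The nearest, at +28.0 kb (chr14:63243335-63243989, intron, late), ends 1282 and 1259 bp from them, in the same order. It rose from 0.0415 RPM at d0 to 0.228 at day 2 and 0.290 at day 4, with libraries at 0.0142, 0.0188 and 0.0516 RPM at 8 h and 0.283 and 0.296 RPM at day 4 (2.51 ± 0.36, adjusted p = 8.12e-11).

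Most of the signal lay in an upstream group between −72.0 and −64.0 kb, within introns of Gm5463 and Gm49390, and in an intronic group between +6.5 and +39.9 kb. The highest member at day 4 was −67.0 kb, bound by PTF at d0, early, with SOX17: its averages ran through 0.509, 0.439, 0.842, 1.21, 2.58, 1.73 and 1.44 RPM from d0 to XEN. Its libraries held 0.233, 0.635 and 0.450 RPM at 8 h, 1.82 and 1.65 RPM at day 4 and 1.32 and 1.56 RPM in XEN cells, and the change to day 4 was 2.01 ± 0.36 (limma adjusted p = 2.37e-07). Per kb it reached 1.51 RPM at day 4, with 2.04% of all regions above it. Around it, −64.0 kb went from 0.163 to 0.595 RPM between d0 and day 4 (2.05 ± 0.36 from 8 h, adjusted p = 1.33e-07), −68.9 kb from 0.0760 to 0.251 RPM (1.38 ± 0.36, adjusted p = 0.000486), −70.8 kb from 0.2996 to 0.825 RPM (1.49 ± 0.36, adjusted p = 0.00016) and −72.0 kb, a transient region, from 0.130 to 0.316 RPM (1.12 ± 0.36, adjusted p = 0.0056). The −70.8 kb region had no GATA6 match and was, like +66.1 kb, among the regions where GATA6 binding was classed as increased on Oct4 knockdown.

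Among the regions in introns of Gata4 itself, those at +6.5 and +39.9 kb stood highest at day 4. Per kb of width they stood at 0.875 and 0.632 RPM, below the +15.4 kb region at 1.06 RPM. At +6.5 kb (chr14:63264284-63266085, PTF at d0) the averages were 0.413 RPM at d0, 2.54 on day 2, 1.58 on day 4 and 1.19 for XEN, with libraries at 0.266, 0.423 and 0.342 RPM at 8 h, 0.833, 1.39 and 0.673 RPM at day 1 and 1.59 and 1.56 RPM at day 4 (2.12 ± 0.36, limma adjusted p = 4.39e-08). At +39.9 kb (chr14:63230600-63233072, PTF at d0) they were 0.345, 2.12, 1.56 and 1.501 RPM in the same 4 groups, with libraries at 0.185, 0.461 and 0.267 RPM at 8 h and 1.47 and 1.65 RPM at day 4 (2.33 ± 0.36, adjusted p = 1.66e-09). The +15.4 kb region, the only member that carries promoter marks in ES cells, began highest at 0.529 RPM and rose least of the strong regions, to 1.196 RPM at day 4 (1.29 ± 0.36, adjusted p = 0.00118). The calls at +15.4 kb and −72.0 kb were lost without library A of the 8 h group, after centring and after quantile normalisation. The −72.0 kb call was also lost with a pseudocount of 0.15 RPM and without day 4 library B. At +10.3 kb the averages were 0.0765 RPM at d0, 0.529 at day 2 and 0.215 at day 4, so that the region kept 0.406 of its day 2 level. It was the only member with less GATA6 binding on Oct4 knockdown, beside 6.25% of all regions. Its libraries at day 2 gave 0.567, 0.624 and 0.398 RPM (2.76 ± 0.32 from 8 h, adjusted p = 4.13e-16), the largest change to day 2 among the members that could be tested.

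**Figure D2:**
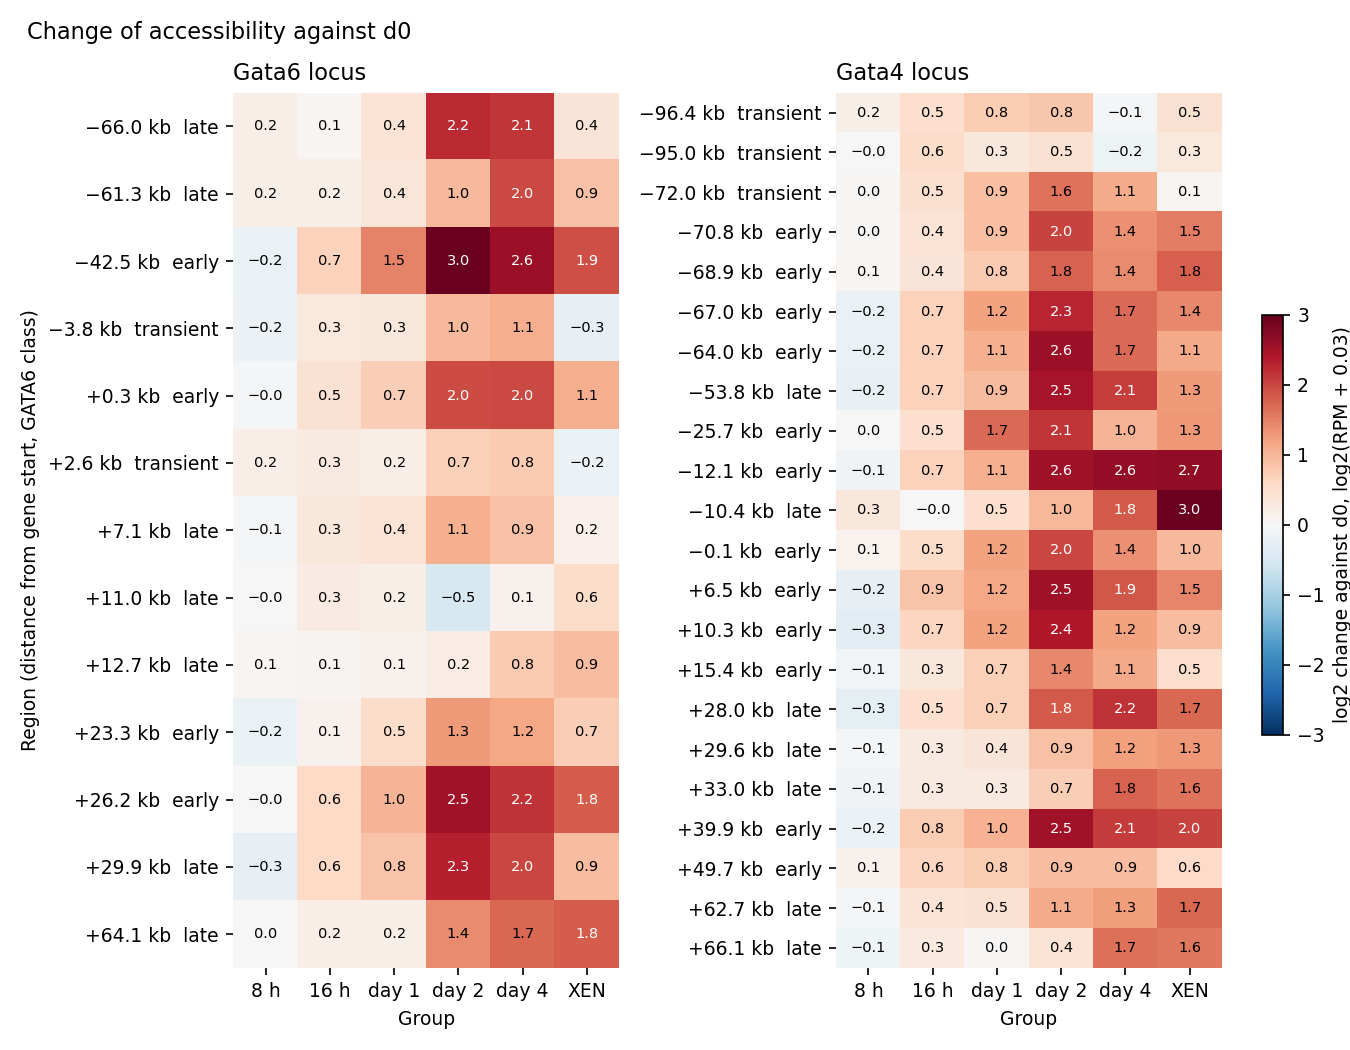
Differences of log2(RPM + 0.03) against d0 for each region (rows, by distance from the gene start and with the GATA6 class) in each later group (columns), from the group averages, for Gata6 (left) and Gata4 (right). Red is higher than at d0, and the numbers are the differences. At 8 h all differences lie between −0.33 and 0.34, while at day 2 the −42.5 kb region of Gata6 stands at 2.97 and the −64.0 kb region of Gata4 at 2.56.

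In the group averages, on the scale of log2(RPM + 0.03), no member was more than 2-fold above d0 at 8 h or 16 h, where 0% and 0.00236% of all regions were. At day 1, 2 of 13 Gata6 regions and 8 of 22 Gata4 regions were (4.55% of all regions), at day 2, 8 and 16 (36.8% of all), and at day 4, 9 and 19 (31% of all). The median member change at day 4 was 1.72 at Gata6 and 1.39 at Gata4, beside 0.52 over all regions. Between single libraries at 8 h and day 4, limma called 9 of 13 Gata6 regions and 19 of 22 Gata4 regions higher (a log2 change beyond 1 with an adjusted p below 0.05), where 31.1% of all 42155 tested regions were, and none lower, where 6.42% of all were. Every day 4 library lay above every 8 h library in 11 Gata6 and 20 Gata4 regions, beside 49.2% of all regions. With libraries centred on their median, 7 Gata6 and 11 Gata4 regions were called. In all, 5 Gata6 regions (−66.0, −42.5, +0.3, +26.2 and +29.9 kb) and 7 Gata4 regions (−67.0, −64.0, −53.8, −12.1, +6.5, +28.0 and +39.9 kb) were called under every setting listed in advance. The members not called at Gata4 were −96.4 kb (−0.15 ± 0.36, adjusted p = 0.759), −95.0 kb (−0.12 ± 0.36, adjusted p = 0.813) and +49.7 kb (0.82 ± 0.36, adjusted p = 0.0479).

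The earlier comparisons reached fewer regions. From 8 h to day 1, 32 members could be tested and 2 Gata6 and 9 Gata4 regions were called higher (6.03% of all regions) and none lower (0.0144% of all). This count was 4 without the low 8 h library, 5 without day 1 library B, 5 after centring, 3 after quantile normalisation and 2 with a pseudocount of 0.15 RPM, so that most of the day 1 calls rest on those choices. From 8 h to day 2 the averages of the strongest regions could not be split into libraries, and only 10 Gata6 and 12 Gata4 regions were tested, of which 6 and 6 were called higher (34% of all tested regions) and none lower (1.21% of all). After centring 5 were called higher and 1, the coding +11.0 kb region of Gata6, lower. That region held only 9, 9 and 7 reads at 8 h and 3, 5 and 5 at day 2. Without centring it was not called (−0.47 ± 0.32, limma adjusted p = 0.224), nor was it after quantile normalisation.

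**Figure D3:**
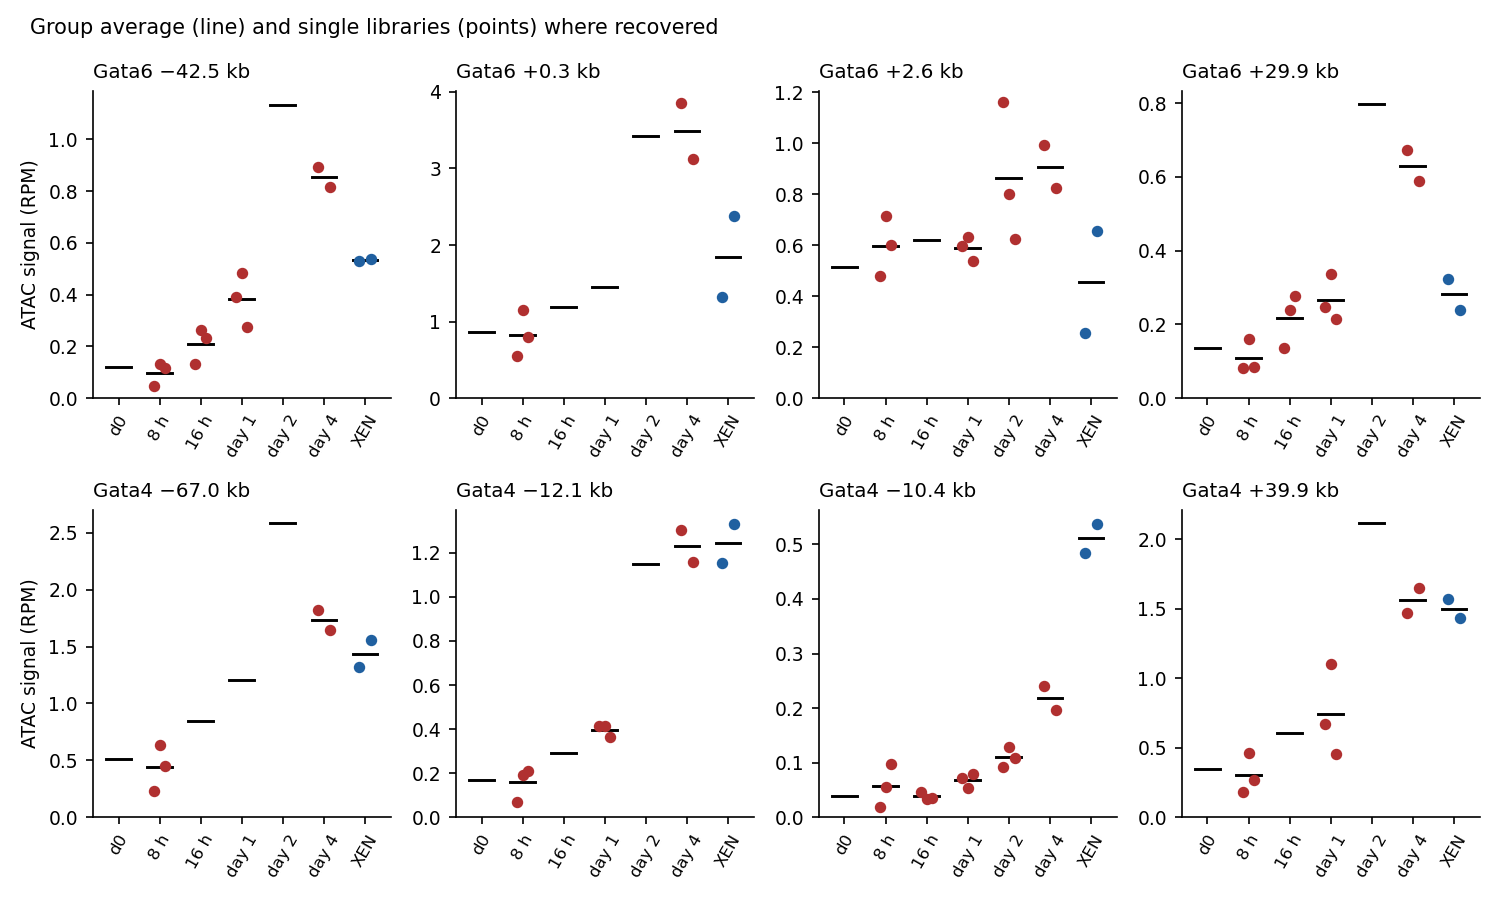
RPM of 8 regions in each group (linear axis from 0), with the group average as a line and the recovered single libraries as points, red for induced cells and blue for XEN cells. Groups without points could not be split. The 2 day 4 points lie above all 8 h points in every panel, and the XEN points lie above day 4 at Gata4 −10.4 kb, where they read 0.485 and 0.537 RPM.

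Regions differed in when they peaked. Over the induction, 6 Gata6 and 14 Gata4 regions were highest at day 2 (45% of all regions), 6 and 7 at day 4 (28% of all), and 1 of each at 16 h. By the GATA6 binding class, which rests on ChIP-seq, 10 of 14 late members stood higher at day 4 than at day 2, against 2 of 16 early members, beside 67.1% of all late and 19.3% of all early regions. Among the late members, +66.1 kb of Gata4 went from 0.0577 RPM at d0 and 0.0868 at day 2 to 0.247 at day 4, with libraries of 0.0726, 0.105 and 0.0830 RPM at day 2 and 0.267 and 0.226 RPM at day 4, which do not overlap. At +33.0 kb the averages were 0.0310, 0.0720 and 0.179 RPM at the same times, and at +29.6 and +62.7 kb the day 4 values were 0.204 and 0.230 RPM after 0.154 and 0.204 RPM at day 2. The early −12.1 kb region of Gata4 (chr14:63282991-63284517, ectopic PTF) was 1 of these 2: after 0.171 RPM at d0 and 1.15 at day 2 it was at 1.23 RPM at day 4, with libraries at 0.0712, 0.193 and 0.211 RPM at 8 h and 1.30 and 1.16 RPM at day 4 (2.84 ± 0.36, limma adjusted p = 2.00e-13). By contrast, the early −25.7 kb region fell back from 0.354 RPM at day 2 to 0.147 at day 4. On the scale of log2(RPM + 0.03), from day 2 to day 4, 2 Gata4 members were more than 2-fold lower (10.2% of all regions) and 1 Gata6 and 2 Gata4 members more than 2-fold higher (2.05% of all). The 2 transient Gata4 regions at the far end, −96.4 and −95.0 kb, peaked at 0.354 RPM at day 2 and 0.0910 RPM at 16 h and were back at 0.181 and 0.0443 RPM at day 4, beside 0.189 and 0.0526 RPM at d0.

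Between day 4 and XEN cells, limma called 5 of 13 Gata6 regions lower (−66.0, −61.3, −3.8, +2.6 and +29.9 kb) and none higher, while at Gata4 1 of 22 was lower (−72.0 kb) and 1 higher (−10.4 kb), beside 12.9% of all regions lower and 6.26% higher. The +2.6 kb region lies on a coding exon, where the induced cells, unlike the wild-type XEN cells, could also give reads from the cassette. The part of the cassette in that call was not tested. At −66.0 kb the XEN libraries held 0.0462 and 0.0659 RPM after 0.278 and 0.241 RPM at day 4 (−1.76 ± 0.39, adjusted p = 0.000233), and 0.0355 RPM at d0. At −3.8 kb they held 0.139 and 0.0971 RPM after 0.395 and 0.301 RPM (−1.36 ± 0.39, adjusted p = 0.00601), and at +29.9 kb 0.323 and 0.239 RPM after 0.673 and 0.588 RPM (−1.10 ± 0.39, adjusted p = 0.0321). The gene start region, at −0.96 ± 0.39, missed both limits (adjusted p = 0.0674). The −10.4 kb region of Gata4 (chr14:63281716-63282410, intergenic, late) ran the other way, from 0.0397 RPM at d0 and 0.218 at day 4 to 0.511 in XEN cells, with libraries at 0.240 and 0.196 RPM at day 4 and 0.485 and 0.537 RPM in XEN cells (1.13 ± 0.39, adjusted p = 0.0266). Its neighbour at −12.1 kb stood at 1.24 RPM in XEN cells against 1.23 at day 4 (0.01 ± 0.39, adjusted p = 0.985). The difference between the loci was not tested. Every XEN library lay below every day 4 library in 9 Gata6 and 10 Gata4 regions (38.4% of all regions) and above in 0 and 6 (26% of all).

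Each of these 7 XEN calls was lost under some alternative: leaving out 1 library gave between 1 and 7 calls, without the small XEN library (43.32 M reads) 2 were called, without day 4 library A 1, without day 4 library B 2 and without the other XEN library 5, and none passed with a pseudocount of 0.15 RPM. The ratio of the Gata6 sum to the Gata4 sum was 0.709 and 0.603 in the day 4 libraries, 0.373 and 0.439 in the XEN libraries, and 0.792, 0.648 and 0.570 at 8 h. In the group averages it was 0.525 at 16 h, 0.476 on day 1 and 0.506 on day 2. The XEN ratios lay below those of the day 4 and 8 h libraries, and with 2 libraries against 2 no exact permutation test can pass 0.05.

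**Figure D4:**
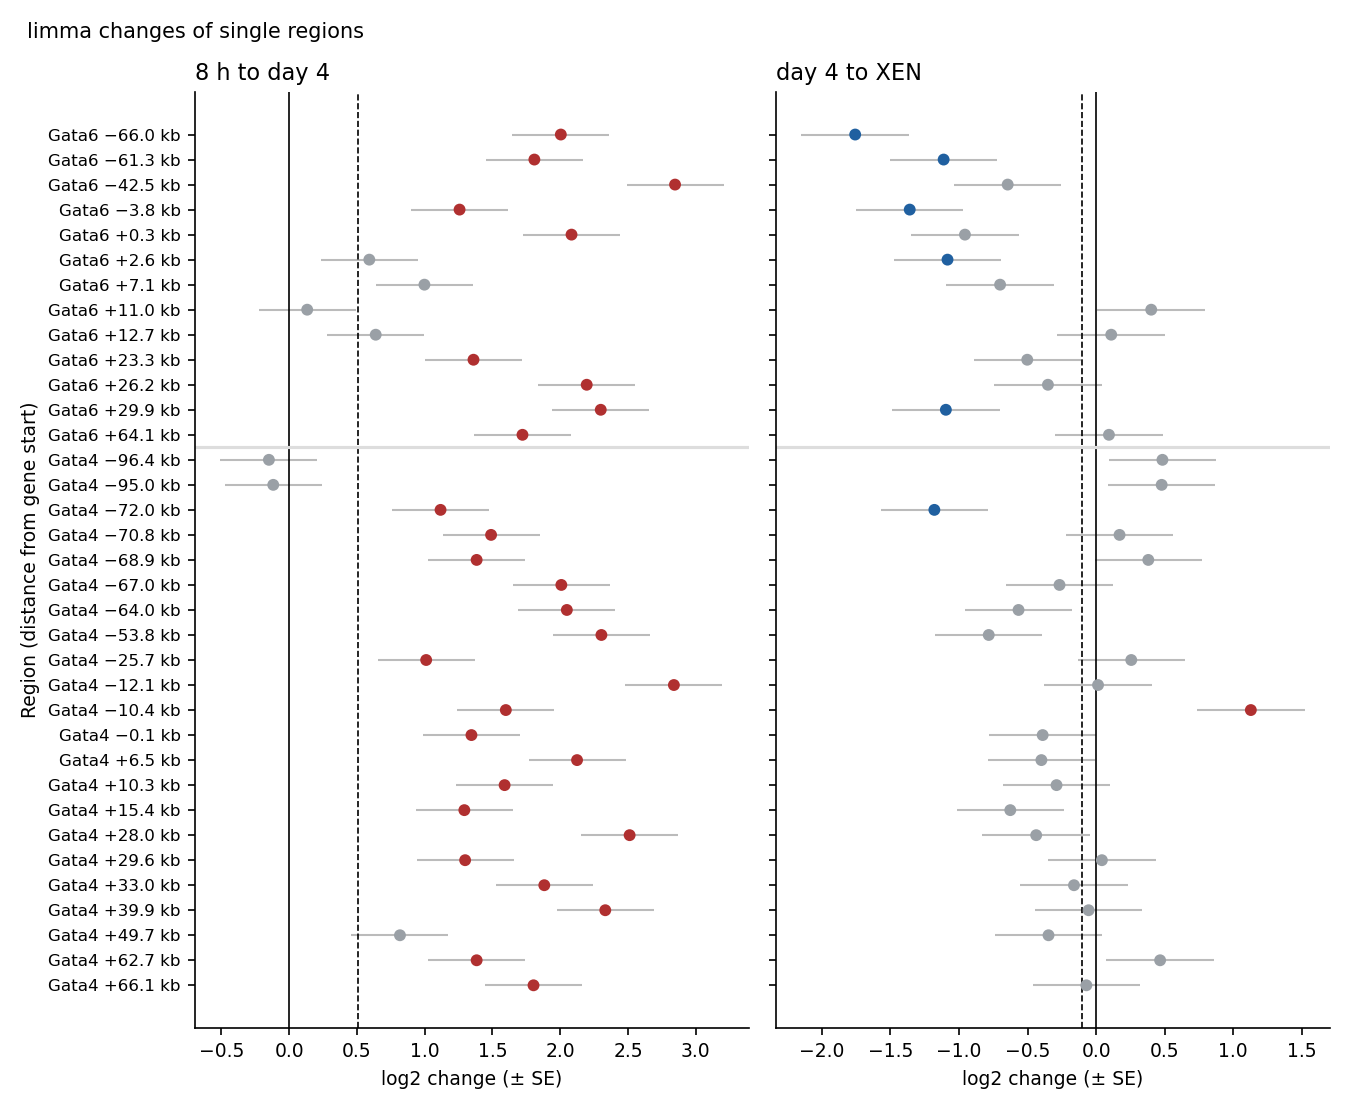
Changes of single regions on the log2 scale with their SE, from 8 h to day 4 (left) and from day 4 to XEN (right), from limma on the recovered libraries. Red and blue points were called higher and lower, grey points were not called, and the dashed line is the median of all tested regions (0.51 and −0.10). On the left, 28 of 35 points are red, and on the right most Gata6 points (upper part) lie left of 0.

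The classes of the members were set beside those of all regions. SOX17 was bound at 10 of 13 Gata6 regions and 19 of 22 Gata4 regions, against 44.5% of all regions. No member was accessible at d0 (7.43% of all regions), and 9 Gata6 and 19 Gata4 regions were closed (61.3% of all). PTF were bound at d0 in 5 Gata4 regions and 0 Gata6 regions (20.8% of all), and ectopically during induction in 4 and 4 (16.6% of all). All 8 ectopic PTF members were called higher at day 4, as were 62% of all ectopic PTF regions, and their median change from d0 was 1.99. Of the 5 members bound by PTF at d0, which are all at Gata4, 3 were called higher, and their median change was 1.71, whereas the median over all such regions was −0.44 and 11.7% of them were called. By the histone marks of ES cells, 14 Gata4 regions were facultative heterochromatin (22.3% of all regions) and 4 poised enhancers (14.6%), and at Gata6 both classes held 4 regions each. No member was an active enhancer in ES cells (11.2% of all).

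Gata4 had 22 GATA6-bound regions within 100 kb of its start. Among 21924 protein-coding genes, 29 others reached that number (0.132% of the others), where the median gene had 4. The 13 regions of Gata6 were matched or exceeded by 5.25% of the other genes. Among the 10152 protein-coding genes with at least 5 such regions, 3.74% had a larger d0 to day 4 change of their sum than Gata6 and 5.06% a larger one than Gata4 (median 0.71). Over the 7 groups, genes whose sums ran most like that of Gata6 were Il4 (Pearson r = 0.9987), Slc19a2 (0.9985) and the pair Mttp and Trmt10a, which share their regions (0.9984). For Gata4 they were Hsd11b2 (0.9983), Tppp3 and Zdhhc1, which share theirs (0.9983), Eva1a (0.9979) and Suclg2 (0.9977). With 7 points that share libraries and 10150 or 10145 genes searched, these values describe a shared time course only.

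Of 30 tested regions near Gata1, Gata2, Gata3 and Gata5, 8 were called higher from 8 h to day 4 and 4 lower, beside 31.1% and 6.42% of all regions, with a median change of −0.17, beside 0.51 over all regions. At Gata3, a factor of trophoblast and other tissues, 5 of its 7 regions were called higher and the sum went from 0.569 RPM at d0 to 1.76 at day 4. The sum at Gata1, an X-linked gene of blood, went from 1.92 to 1.33 RPM with 2 regions called lower and 1 higher. Near the GATA cofactor genes Zfpm1 and Zfpm2, 4 of 12 regions were called higher. In the other primitive endoderm factor genes 55 of 91 regions were called higher and 3 lower (median change 1.26), in the surface and matrix genes 72 of 109 and 0 (1.27), in the pluripotency factor genes 17 of 79 and 13 (−0.05), and near the mesoderm and trophectoderm genes T, Mesp1, Cdx2 and Elf5 8 of 29 and 2 (0.48). Among the endoderm factor genes, Foxa2 and Sox17 had 19 and 9 regions called higher and d0 to day 4 changes of 2.14 and 2.02.

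**Figure D5:**
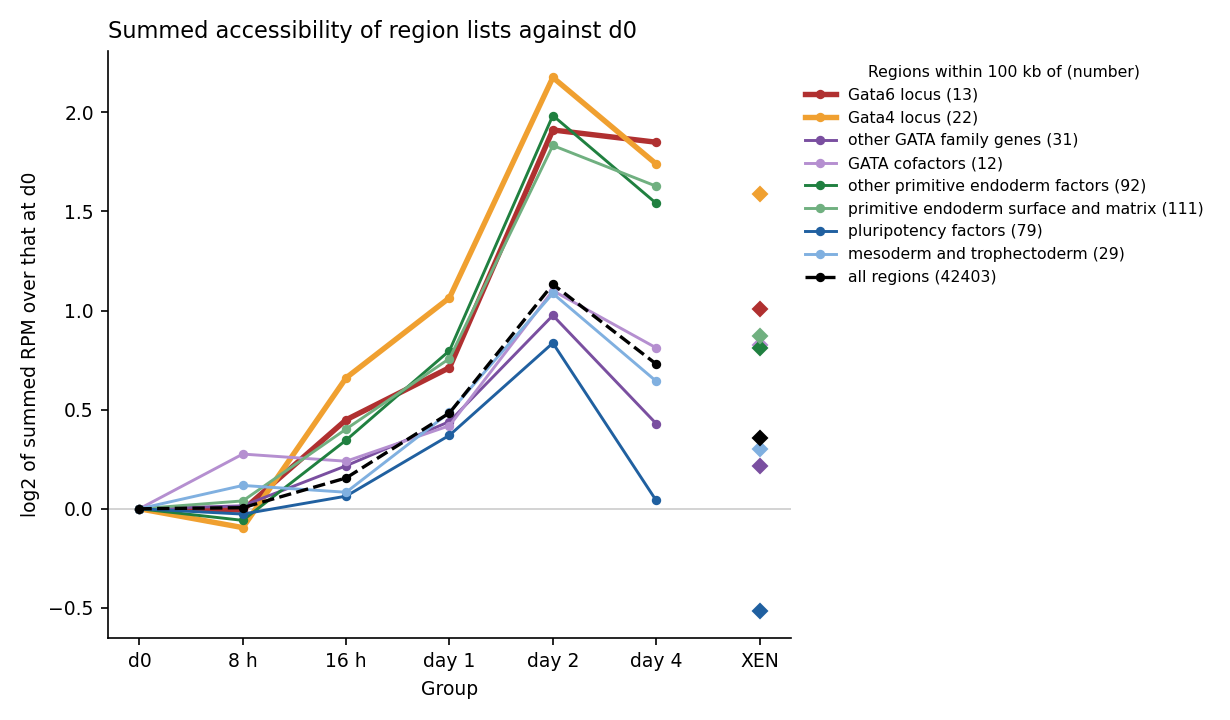
Log2 of the summed RPM of each list of regions over its sum at d0, by group, from the group averages, with the number of regions in brackets and XEN as diamonds. The Gata6 and Gata4 lines (thick) run above the dashed line of all regions from 16 h on. For XEN, Gata4 is the highest of the lists shown.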

How the data were processed

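The members and the gene lists were chosen with earlier results of these data known. The authors aligned ATAC-seq reads to mm10 with bowtie2, removed duplicates, shifted reads for Tn5, kept fragments under 100 bp and counted them in GATA6 peaks with bamsignals. The deposited RPM values are the authors' averages over the libraries of a group, and 1 read appears to have been added per region and library. Deposited motif scores (FIMO, a score per match) and region classes were used as given. A further 52 columns with per-sample values of other assays were not used.

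Since an average over libraries of different size carries a separate step for each, the steps were sought and found at 24753 regions printed with over 12 significant digits, where all values were decoded within 1e-07 reads. All 35 members are printed with 7 digits, so their values were kept where exactly 1 combination of reads lay within the shares that libraries took elsewhere. In a check on rounded full-precision values, 83.0% to 100.0% were decoded, of which 0 to 1 per group were wrong. High values at 16 h and day 2 often stayed undecoded and are not tested. Libraries carry letters, since no label ties them to samples. The recovery, like the use of 8 h as the baseline, was chosen after the data were seen.

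limma 3.58.1 (R 4.3.3) was fitted to log2(RPM + 0.03) of 16 libraries at all 42403 regions with Benjamini-Hochberg adjustment over all tested regions, and tested on simulated data. Its prior degrees of freedom were infinite, so all regions share a residual spread of 0.392 on the log2 scale, and the SE depends only on the number of libraries. The pseudocount understates changes of low regions. The methods describe 3 independent cultures a group and 2 for day 4. Intervals of depth cover counting error only. Named were, for each locus: the region nearest the start, the 6 highest at day 4, the 4 highest at d0, the 4 largest and 3 smallest changes, the 3 with the largest XEN difference, those changed on Oct4 knockdown and those on coding exons. Genes of like pattern were the 5 with the highest Pearson correlation. Some genes and sequences that these rules name are not reported here. The −72.0 kb, +23.3 kb and other regions outside this rule were named after their values were seen.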

Additional observations from a re-analysis of the deposited data

How the results depend on the processing

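No paired analysis was possible because the columns are group averages and the recovered libraries carry no replicate number. The Gata6 change from d0 to day 4 (1.84) was 1.12 with columns centred on their median, 1.09 after quantile normalisation, 2.15 in a window of 200 kb and 2.12 without coding exon regions, and 1.71 to 1.95 when 1 day 4 library was left out. The Gata4 change (1.73) was 1.01 and 0.98 under the same scalings, 1.70 with a pseudocount of 0.15 RPM, 1.76 with the lowest value subtracted, 1.75 with a filter of 0.1 RPM, 1.85 and 1.61 in windows of 50 and 200 kb, and 1.73 to 1.74 by day 4 library. The day 4 libraries happen to be close, so small moves exceed their SD. All stayed positive.

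Calls from 8 h to day 1 (11) were 2 with a pseudocount of 0.15 RPM, 5 centred, 3 after quantile normalisation, 6 with only values of a single solution over every split between libraries (a setting added after the data were seen, 24 regions tested), and 4 to 14 leaving out 1 library. Those from 8 h to day 2 (12) were 7, 6, 4 and 3 in the same order, 24 when undecoded values were filled with the solution of widest spread (also added, 35 tested), and 10 to 14 leaving out 1 library. From 8 h to day 4 (28) they were 14, 18 and 18 with the pseudocount of 0.15 RPM, centred and quantile normalised, and 25 to 29 leaving out 1 library. From day 4 to XEN (7) they were 2 with a pseudocount of 0.006 RPM, 0 with 0.15 RPM and 1 to 7 leaving out 1 library. No called region changed direction under any of these settings. The cause of these moves was not tested. Depth limits the weakest regions, where 1 read is worth 0.0035 to 0.0231 RPM.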
